A study of Mus musculus with 72 samples.

Results

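Lung tumors that had arisen 3 months after carcinogen exposure were set against the normal-appearing lung of the same animal. The comparison holds every tumor library whose title carries the 3-month tumor code (ADN, a term the labels do not define) and the normal lung library with the same animal name. These are 6 tumors and 4 matched lungs of 4 animals, 10 of the 72 libraries in the series. F7016 and F7018 gave a pair of tumors each, called the first and the second by the number in the title, and F7015 and M7008 gave 1 each. The letters F and M before the animal numbers are not explained in the labels.

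The series followed Gprc5a-/- mice, which lack a lung epithelial orphan receptor and are known to develop lung adenocarcinoma, before exposure, at the end of exposure, and 3 and 7 months after exposure to NNK, a nitrosamine of tobacco smoke. Tumors were dissected out of the lung with a needle and sequenced apart from the normal-appearing tissue. Both groups described here were Gprc5a-/-, NNK exposed, 28 weeks old and 3 months past exposure, so the deletion and the carcinogen were common to tumor and lung, and no unexposed tumor or wild-type lung enters the comparison. Expression was measured with a targeted amplicon panel in which each gene is read through its own amplicon, so the level of a gene is compared between libraries. The summed level of a gene list adds different amplicons and is led by the genes with the most counts. Levels are CPM, the counts of a gene scaled by library size and composition.

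Alveolar type 2 cells make surfactant and renew the gas-exchange surface, and carcinogen-induced lung adenocarcinomas of mice are known to resemble them. The other epithelial cells of the mouse lung are flat alveolar type 1 cells, secretory club cells and ciliated cells, beside endothelium, fibroblasts, smooth muscle, mesothelium and resident macrophages. Ras and receptor tyrosine kinase signalling through the MAPK cascade is a common driver of such tumors, and it induces its own feedback inhibitors of the Dusp, Sprouty and Spred families. In bulk tissue, fewer cells of a type and less RNA per cell cannot be told apart.

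The deleted gene was checked first. Gprc5a had 0 to 3 counts per library and no count at all in 6 of the 10 libraries. Among tumors only the second of F7018 had a count (1), and the lungs had 0 to 3. The highest Gprc5a level was 0.0815 CPM in tumors and 0.181 CPM in lungs. Where its amplicon lies relative to the deleted part is not given in the sources used here. The tumors had 8506299 to 16331447 counts and the lungs 13785020 to 17489059. The first tumor of F7018 stood apart before any test: it correlated with its own lung at r = 0.946 across genes, where the other 5 tumors reached 0.88 to 0.914. It also carried high sums of airway, mesothelial and muscle markers, given beside the results they move with. The first tumor of F7016 carried high sums of lymphocyte and interferon genes.

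Across 15457 genes tested, 1472 (9.52%) were higher and 1574 (10.2%) were lower in tumors than in the lung of the same animal. These calls come from edgeR's quasi-likelihood test with the animal as a block, at an adjusted p (Benjamini-Hochberg) under 0.05, and fold changes are log2 tumor over normal lung ± SE. DESeq2 called 1829 higher (11.8%) and 2706 lower (17.5%). Of the 3046 genes called, 2955 moved the same way in all 4 animals, against 7156 of all 15457 genes. The paired test itself favors genes that move alike, so this is no separate support. By at least 2-fold, 877 of the called genes rose and 1347 fell. Scaling to total counts in place of composition moved the median of all genes to -0.37 from -0.05 and split the calls into 673 higher and 2748 lower. Leaving out 1 animal at a time kept 1386 of the calls without F7015, 790 without F7016, 2547 without F7018 and 866 without M7008, and 617 in all 4 fits (364 higher, 253 lower). These shares, 9.52% higher and 10.2% lower, are the background for each count of list members called by edgeR below. A change of a single gene named below kept its call in each of these 4 fits unless the animals without which it was lost are given. Counts of list members called are those with all animals, and many of these calls were lost when 1 animal was left out.

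**Figure D1:**
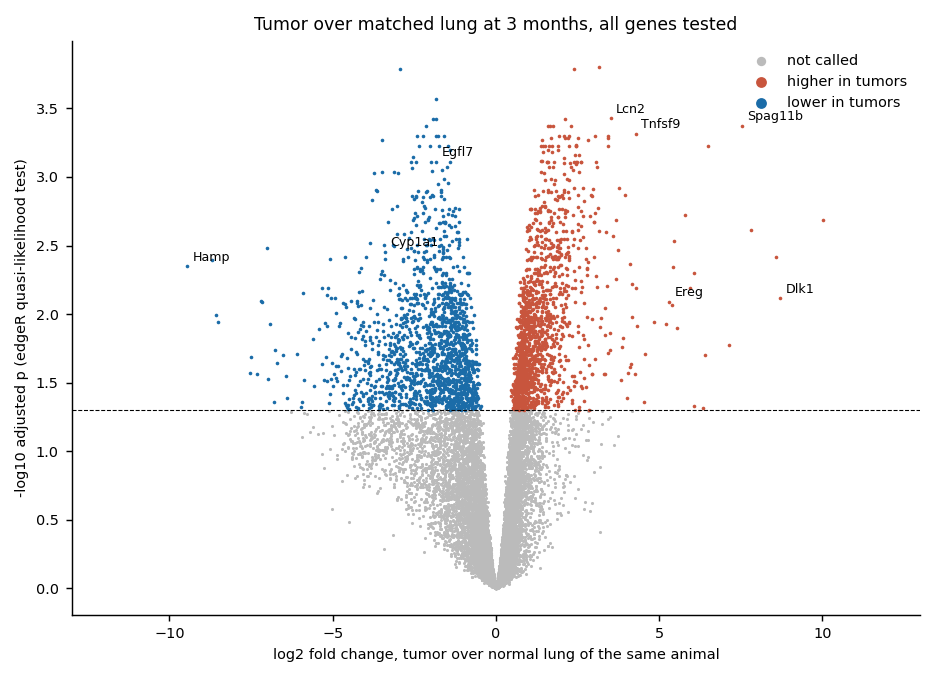
Each point is a gene, with the log2 fold change of tumor over the matched lung (4 animals) on the horizontal axis and -log10 of the edgeR adjusted p on the vertical axis, where the dashed line marks 0.05. Red points are the 1472 genes called higher in tumors, blue points the 1574 called lower, and grey points are not called. Lcn2, Spag11b and Tnfsf9 lie far up on the side of higher levels, and Dlk1 and Hamp lie farthest out among the labelled genes.

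The CPM levels of 518 genes (3.35%) lay above all 9 normal lungs of 3 months in all 6 tumors, and those of 595 genes (3.85%) lay below all 9. Among 43 gene lists for lung cell types and pathways, the highest median fold changes were those of the alveolar type 2 list (1.97 on the log2 scale) and of proliferation (1.51), and the lowest those of the adipocyte (-5.42), cardiac and skeletal muscle (-5.00), ciliated (-4.07) and club cell lists (-3.84). The median of all genes was -0.05.

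**Figure D2:**
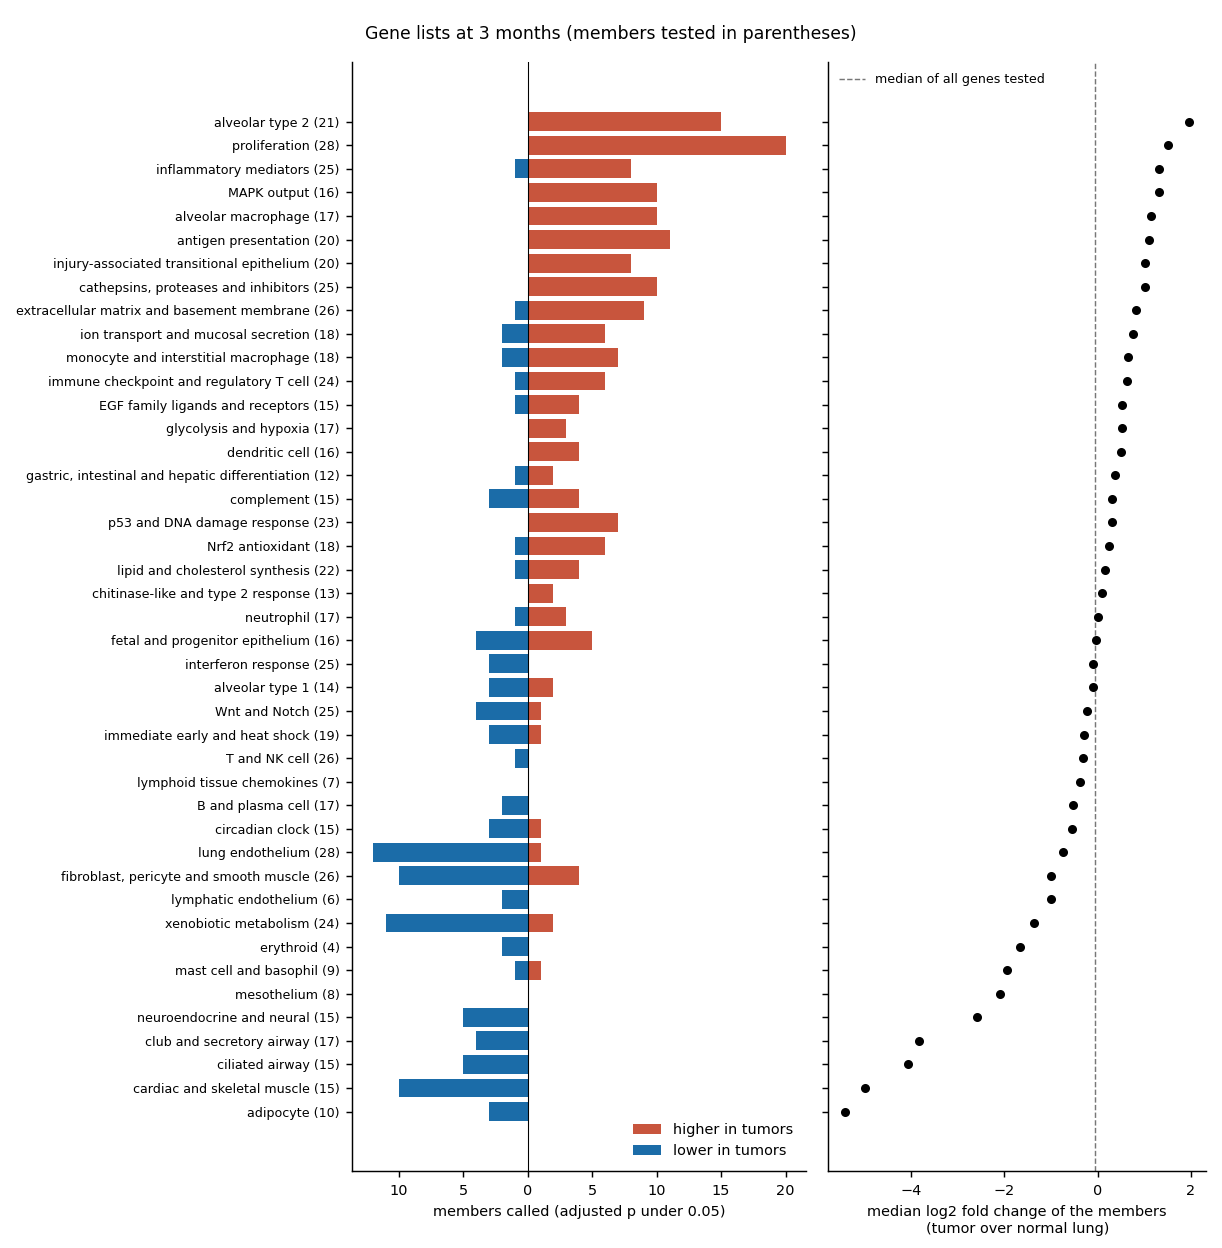
Left, the number of members of each of 43 gene lists called higher (red, to the right) or lower (blue, to the left) in tumors than in the matched lung, with the number of members tested in parentheses. Right, the median log2 fold change of each list, with a dashed line at the median of all genes (-0.05). Alveolar type 2 genes (15 of 21 higher) and proliferation genes (20 of 28 higher) stand at the top, and muscle and airway lists at the bottom.

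Surfactant and alveolar type 2 genes were higher in the tumors. Of 21 members tested, 15 rose and none fell in the edgeR test, against 9.52% and 10.2% of all genes, and 10 of the rises held without any 1 animal. The summed level of the list was 65194 to 263938 CPM in the 6 tumors, against 28147 to 41438 CPM in the 4 lungs. The second tumors of F7016 and F7018 had the highest sums, and no tumor overlapped with the lungs.

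Sftpb, the surfactant protein required for breathing at birth, was at 7511 CPM in the F7015 tumor, 7062 and 39069 CPM in the F7016 tumors, 8993 and 35424 CPM in the F7018 tumors and 13935 CPM in the M7008 tumor, against 3246, 4515, 3675 and 3968 CPM in the lungs of F7015, F7016, F7018 and M7008. Every tumor lay above every lung, the second tumors of F7016 and F7018 by most. With the tumors of an animal summed and the libraries scaled anew, the mean was 17564 ± 8184 CPM in tumors and 3810 ± 496 CPM in lungs (SD, n = 4 each). The log2 fold change of Sftpb was 2.07 ± 0.45 (edgeR adjusted p = 0.00648), or 4.21-fold. Sftpc, the surfactant protein most specific to type 2 cells, ranged from 8560 to 59303 CPM in tumors and from 4342 to 8716 CPM in lungs, and the first F7016 tumor overlapped with its own lung. Its fold change was 2.03 ± 0.50 (edgeR adjusted p = 0.0112), lost without F7016 (adjusted p = 0.0614) or M7008 (0.0562) and not called by DESeq2 (adjusted p = 0.106). With the first tumors of F7016 and F7018 alone beside the single tumors, Sftpb was at 1.31 (edgeR adjusted p = 0.0609) and Sftpc at 1.30 (0.134).

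Lamp3, a protein of the lamellar bodies in which surfactant is stored, was at 171 CPM in the F7015 tumor, 164 and 382 CPM in the F7016 tumors, 72.1 and 108 CPM in the F7018 tumors and 223 CPM in the M7008 tumor, against 17.4, 29.6, 23.9 and 20.6 CPM in the 4 lungs. The lowest tumor was the first of F7018, still above every lung. Lamp3 rose by 3.04 ± 0.40 (edgeR adjusted p = 0.000501). Cxcl15, a chemokine made by lung epithelium, ranged from 3168 to 7888 CPM in tumors and from 571 to 1651 CPM in lungs (2.70 ± 0.45, edgeR adjusted p = 0.0015). Slc34a2, the phosphate transporter of type 2 cells, rose by 2.23 ± 0.37 (edgeR adjusted p = 0.00143). Ctsh, a cathepsin that processes surfactant proteins, rose by 2.45 ± 0.35 (edgeR adjusted p = 0.0006). For these 4 genes no tumor overlapped with any lung.

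The lineage factor Nkx2-1, which keeps lung epithelial identity, was at 48 CPM in the F7015 tumor, 35.1 and 53.4 CPM in the F7016 tumors, 11.8 and 26.2 CPM in the F7018 tumors and 71.6 CPM in the M7008 tumor, against 11.9, 24.8, 15.4 and 19.3 CPM in the 4 lungs. Its fold change of 1.33 ± 0.53 did not pass the edgeR test (adjusted p = 0.0816). The first tumor of F7018 was the only tumor below its lung, and without it the value was 1.47 (edgeR adjusted p = 0.0383). DESeq2 called Nkx2-1 higher (adjusted p = 0.0345).

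Alveolar type 1 genes did not move as a block. Of 14 tested, 2 were higher and 3 lower, with a median of -0.09. Aqp5, a water channel of type 1 cells, was at 291 CPM in the F7015 tumor, 449 and 1238 CPM in the F7016 tumors, 230 and 1148 CPM in the F7018 tumors and 771 CPM in the M7008 tumor, against 128, 207, 155 and 183 CPM in the 4 lungs. All tumors lay above all lungs (1.93 ± 0.37, edgeR adjusted p = 0.00331), though with the first tumors alone the value was 1.30 (0.065). Ager, the receptor that marks type 1 cells, ranged from 43.8 to 129 CPM in tumors and from 24.9 to 61.4 CPM in lungs. Its fold change of 1.01 ± 0.32 (edgeR adjusted p = 0.0335) was lost when any 1 of the 4 animals was left out, with adjusted p between 0.0598 and 0.19.

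The 3 type 1 genes that were lower were Cav1, Rtkn2 and Vegfa. Vegfa, the vascular growth factor that type 1 cells supply to capillaries, was at 329 CPM in the F7015 tumor, 134 and 93.1 CPM in the F7016 tumors, 201 and 118 CPM in the F7018 tumors and 178 CPM in the M7008 tumor, against 614, 798, 741 and 638 CPM in the 4 lungs. No tumor reached any matched lung (-1.89 ± 0.55, edgeR adjusted p = 0.0256), but the call was lost without F7016, F7018 or M7008, with adjusted p of 0.133, 0.0621 and 0.0877. Rtkn2, a marker of type 1 cells, fell by 1.10 ± 0.26 (edgeR adjusted p = 0.00981, lost without F7016 at 0.0795). Cav1, the main protein of caveolae, fell by 0.85 ± 0.25 (edgeR adjusted p = 0.0245) and was not called without F7015, F7016 or M7008.

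Genes of the transitional state that alveolar cells pass through after injury were higher in part. Of 20 tested, 8 rose and none fell, with a median of 1.03, and 2 of the rises, Lcn2 and Clu, held without any 1 animal. Lcn2, the iron-siderophore binding protein lipocalin 2, was at 1809 CPM in the F7015 tumor, 989 and 1463 CPM in the F7016 tumors, 572 and 1735 CPM in the F7018 tumors and 777 CPM in the M7008 tumor, against 140, 136, 147 and 48.9 CPM in the 4 lungs. The lowest tumor lay above the highest lung in every animal. The mean was 1276 ± 427 CPM in tumors and 117 ± 45.6 CPM in lungs (SD, n = 4 animals each), an 11.4-fold difference (3.51 ± 0.41 on the log2 scale, edgeR adjusted p = 0.000375). Clu, the secreted chaperone clusterin, rose by 2.54 ± 0.39 (edgeR adjusted p = 0.000927), with 810 to 6046 CPM in tumors and 439 to 853 CPM in lungs. The first F7018 tumor, at 810 CPM, was the tumor that overlapped with the lungs. The keratin Krt18 rose by 1.55 ± 0.38 (edgeR adjusted p = 0.011, lost without F7016 at 0.0551), and its partner Krt8 by 1.12 ± 0.37 (edgeR adjusted p = 0.043, lost without any 1 animal).

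**Figure D3:**
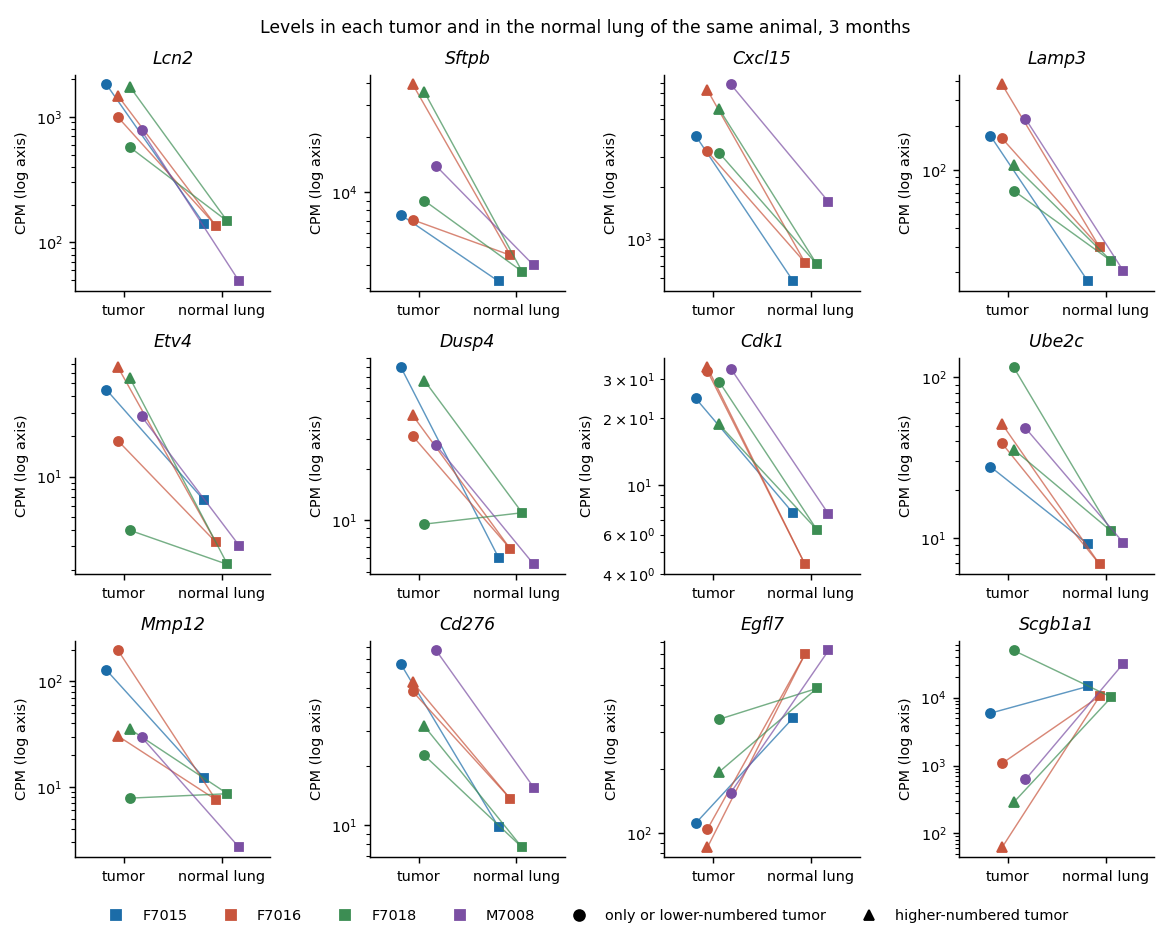
CPM on a log axis of 12 genes in each tumor (left) and in the normal lung of the same animal (right, squares), joined by lines and coloured by animal. Circles are the only or lower-numbered tumor of an animal and triangles the higher-numbered one. For Lcn2, Sftpb, Cxcl15, Lamp3, Cdk1, Ube2c and Cd276 every tumor lies above every lung, and Scgb1a1 is at 49632 CPM in the first F7018 tumor, above its lung at 10188 CPM.

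Among fetal and progenitor genes the calls went both ways (5 higher and 4 lower of 16). Sox4, a transcription factor of developing epithelium, rose by 1.62 ± 0.31 (edgeR adjusted p = 0.00289). In the gastric, intestinal and hepatic list 2 of 12 genes were higher and 1 was lower, against 9.52% and 10.2% of all genes. Hnf4a, a factor of gastric and hepatic differentiation in lung tumors, stayed between 0 and 4.43 CPM in tumors and between 0.459 and 2.8 CPM in lungs and was not called (-0.81 ± 1.27, edgeR adjusted p = 0.689). Sox9, a factor of the distal lung bud, was at 113 CPM in the F7015 tumor and at 0.591 to 1.74 CPM in the other 5 tumors, against 0.312 to 1.99 CPM in lungs. Its fold change of 2.28 ± 1.16 was not called (edgeR adjusted p = 0.169), and it was 1.03 without F7015. Without the animal block Sox9 was called at 5.10 (edgeR adjusted p = 0.0174), and limma-voom called it as well (0.0126).

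An imprinted gene and a gastric gene were on in some tumors and near 0 in the rest. Dlk1, a Notch-pathway ligand homologue of fetal tissue, was at 4440 CPM in the F7015 tumor, 264 and 0.929 CPM in the F7016 tumors, 0.146 and 102 CPM in the F7018 tumors and 0.859 CPM in the M7008 tumor, against 0.241, 0.831, 0.153 and 0.237 CPM in the 4 lungs. In F7016 the first tumor and in F7018 the second was the high one, so tumors of 1 animal differed by far more than their lungs did. The fold change of Dlk1 was 8.71 ± 1.92 (edgeR adjusted p = 0.00768), 6.62 without F7015, 10.36 without F7016 and 9.78 without M7008. It was not called without the first tumor of F7016 (6.33, adjusted p = 0.0775), nor with 1 tumor for each animal (0.0961 with the first and 0.109 with the second tumors) or with each tumor as its own library (0.0685). Gkn2, a secreted protein of gastric epithelium, was at 27.4 CPM in the F7015 tumor, 0.326 and 6.16 CPM in the F7016 tumors, 0 and 17 CPM in the F7018 tumors and 0.156 CPM in the M7008 tumor, with no count in 3 of the lungs and 0.0593 CPM in the lung of M7008.

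Proliferation genes were higher. Of 28 tested, 20 rose in the edgeR test and none fell, against 9.52% of all genes. All 28 had a positive fold change, 26 of them in every animal, against 7309 and 3494 of all 15457 genes. The summed level was 451 to 890 CPM in tumors, against 245 to 302 CPM in lungs, and no tumor overlapped with a lung. The second F7018 tumor had the lowest sum.

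Cdk1, the kinase that starts mitosis, was at 24.5 CPM in the F7015 tumor, 32.5 and 33.7 CPM in the F7016 tumors, 29.1 and 18.7 CPM in the F7018 tumors and 33.3 CPM in the M7008 tumor, against 7.47, 4.41, 6.32 and 7.42 CPM in the 4 lungs. The spread among tumors was under 2-fold and every tumor lay above every lung. Cdk1 averaged 29.9 ± 6.76 CPM in tumors and 6.36 ± 1.48 CPM in lungs (SD, n = 4 animals each), a 4.70-fold difference (2.23 ± 0.35 on the log2 scale, edgeR adjusted p = 0.00105). Ube2c, the ubiquitin-conjugating enzyme of mitotic exit, was at 27.8 to 115 CPM in tumors and 6.85 to 11 CPM in lungs (2.45 ± 0.35, edgeR adjusted p = 0.0006), highest in the first F7018 tumor. Top2a, the topoisomerase that untangles replicated chromosomes, rose by 1.97 ± 0.37 (edgeR adjusted p = 0.00298), and Ccnb2, a B-type cyclin, by 1.82 ± 0.30 (edgeR adjusted p = 0.00144). Mcm2, a subunit of the replicative helicase, rose by 1.46 ± 0.28 (edgeR adjusted p = 0.00328).

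Mki67, the proliferation antigen Ki-67, did not pass the edgeR test (1.40 ± 0.53, adjusted p = 0.0692). It was at 41.1 CPM in the F7015 tumor, 48.7 and 50.1 CPM in the F7016 tumors, 55.2 and 11.9 CPM in the F7018 tumors and 56.5 CPM in the M7008 tumor, against 17.5, 15.9, 20 and 17.6 CPM in the 4 lungs. The second F7018 tumor was the only tumor below its lung. DESeq2 called Mki67 higher (adjusted p = 0.0299), as did edgeR with the 4 pairs alone (0.0213).

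Promoters are shown for Cdk1, Top2a and Ccnb2, 3 mitotic genes that rose together in every animal, since promoters of such genes are known to carry CCAAT boxes bound by NF-Y and the CHR element TTTGAA bound by the DREAM complex and B-Myb with FoxM1. Each line gives the 250 bases before the annotated start, 5′ to 3′ on the strand of the gene, from RefSeq on GRCm38.p6, with CCAAT and TTTGAA on either strand in capitals. The windows are chr10:69352913-69353162 for Cdk1, chr11:99024190-99024439 for Top2a and chr9:70421555-70421804 for Ccnb2, all on the minus strand.
Cdk1: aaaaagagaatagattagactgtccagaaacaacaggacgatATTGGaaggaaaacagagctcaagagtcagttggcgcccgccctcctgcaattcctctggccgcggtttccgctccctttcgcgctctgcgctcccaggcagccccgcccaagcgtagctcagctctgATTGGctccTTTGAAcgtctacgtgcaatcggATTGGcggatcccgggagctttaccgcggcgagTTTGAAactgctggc
Top2a: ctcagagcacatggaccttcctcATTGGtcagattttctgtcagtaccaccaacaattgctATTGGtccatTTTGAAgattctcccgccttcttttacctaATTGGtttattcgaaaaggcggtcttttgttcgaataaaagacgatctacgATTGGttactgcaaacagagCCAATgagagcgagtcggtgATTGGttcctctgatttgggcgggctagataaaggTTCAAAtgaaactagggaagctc
Ccnb2: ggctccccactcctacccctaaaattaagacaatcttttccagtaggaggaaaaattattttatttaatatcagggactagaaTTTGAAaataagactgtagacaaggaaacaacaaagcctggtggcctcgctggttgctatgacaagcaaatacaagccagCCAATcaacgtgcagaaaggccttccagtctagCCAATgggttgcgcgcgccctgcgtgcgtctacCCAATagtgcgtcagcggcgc
The Cdk1 window holds 3 CCAAT and 2 TTTGAA matches, that of Top2a 6 and 2, and that of Ccnb2 3 and 1. Of the 20 proliferation genes called higher, 15 had a window in the RefSeq table. CCAAT was in 12 of these 15 (80%), TTTGAA in 6 (40%) and both in 6 (40%). The 3 windows shown are among the 6 with both. Among all 27025 genes with a window, CCAAT was in 10133 (37.5%), TTTGAA in 4934 (18.3%) and both in 1984 (7.34%). The 2 motifs can share an end base, which they do not in these 3 windows, and binding was not measured.

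MAPK output genes were higher, and their members are mostly feedback inhibitors and ETS factors of the cascade. Of 16 tested, 10 rose and none fell, against 9.52% and 10.2% of all genes. All 16 had a positive fold change, against 7309 of all 15457 genes. Etv4, an ETS transcription factor induced by ERK, was at 44.8 CPM in the F7015 tumor, 18.5 and 65.8 CPM in the F7016 tumors, 3.95 and 54.9 CPM in the F7018 tumors and 28.3 CPM in the M7008 tumor, against 6.63, 3.22, 2.19 and 3.03 CPM in the 4 lungs. Of the 6 tumors, 5 lay above every lung and the first of F7018 did not. Etv4 was 10.7-fold higher (3.42 ± 0.46, edgeR adjusted p = 0.000518), and 2.45 with the first tumors alone (adjusted p = 0.00719).

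Dusp4, a nuclear phosphatase that inactivates ERK, was at 79.2 CPM in the F7015 tumor, 31.3 and 41.4 CPM in the F7016 tumors, 9.52 and 66.3 CPM in the F7018 tumors and 27.6 CPM in the M7008 tumor, against 6.03, 6.8, 11.1 and 5.52 CPM in the 4 lungs. Only the first F7018 tumor did not exceed its own lung (2.60 ± 0.39, edgeR adjusted p = 0.000776). Dusp6, the cytoplasmic ERK phosphatase, rose by 1.75 ± 0.27 (edgeR adjusted p = 0.00084) and reached 481 CPM in the second F7018 tumor. The adaptor Spred1, which restrains Ras, rose by 1.69 ± 0.30 (edgeR adjusted p = 0.00208), and Spry2, an inhibitor of receptor tyrosine kinase signalling, by 1.49 ± 0.30 (edgeR adjusted p = 0.0044). With the first tumors alone, Dusp6 was at 1.16 (edgeR adjusted p = 0.0663), Spred1 at 1.22 (0.0662) and Spry2 at 1.02 (0.0555).

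Among EGF family ligands and receptors 4 of 15 were higher and 1 was lower. The ligand Ereg, epiregulin, was at 7.04 CPM in the F7015 tumor, 14.4 and 54.6 CPM in the F7016 tumors, 3.15 and 309 CPM in the F7018 tumors and 22 CPM in the M7008 tumor, against 0.663, 0.935, 1.02 and 0.771 CPM in the 4 lungs. Every tumor lay above every lung, across a wide range within F7018. Ereg rose by 5.30 ± 1.18 (edgeR adjusted p = 0.0081), 4.65 without F7018 and 3.54 with the first tumors alone (adjusted p = 0.0772). The ligand Areg, amphiregulin, rose by 1.86 ± 0.59 (edgeR adjusted p = 0.0371), a call lost without F7015, F7016 or F7018 (adjusted p of 0.0687, 0.177 and 0.122). The neuregulin Nrg2, a ligand of ErbB3 and ErbB4, fell by 2.40 ± 0.47 (edgeR adjusted p = 0.00351), with 2.53 to 27.3 CPM in tumors and 19.5 to 34.8 CPM in lungs. The highest tumor level of Nrg2 was that of the first F7018 tumor. The receptor Erbb3 rose by 0.84 ± 0.28 (edgeR adjusted p = 0.0454, lost without any 1 animal), and Egfr was at -0.91 ± 0.36 (edgeR adjusted p = 0.079), called lower without F7018 (-1.19, adjusted p = 0.0445) and by DESeq2 (0.0416).

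Of 23 p53 and DNA damage response genes, 7 rose and none fell, with a median of 0.31. Cdkn2a, which encodes the tumor suppressors p16 and p19Arf, was at 35.5 CPM in the F7015 tumor, 25.4 and 12.1 CPM in the F7016 tumors, 4.91 and 32.8 CPM in the F7018 tumors and 17.9 CPM in the M7008 tumor, against 3.38, 5.3, 2.09 and 1.25 CPM in the 4 lungs. Only the first F7018 tumor overlapped with the lungs, at a level above its own lung (3.07 ± 0.64, edgeR adjusted p = 0.00532). Gdf15, a cytokine that stressed cells secrete, was higher by 1.83 ± 0.34 (edgeR adjusted p = 0.00252), and Tnfrsf10b, the mouse TRAIL death receptor, by 1.40 ± 0.30 (edgeR adjusted p = 0.00571). With the first tumors alone these were 1.2 (edgeR adjusted p = 0.051) for Gdf15 and 0.96 (0.0842) for Tnfrsf10b. Cdkn1a, the p53-induced cell cycle inhibitor p21, was at 108 to 223 CPM in tumors and 77.4 to 101 CPM in lungs, without overlap, but its fold change of 0.84 ± 0.30 missed the edgeR threshold (adjusted p = 0.0528) and passed that of DESeq2 (0.0318).

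Ion transport and mucosal secretion genes included 6 higher and 2 lower of 18. The chloride transporter Slc26a9 rose by 2.41 ± 0.35 (edgeR adjusted p = 0.000694), with 147 to 787 CPM in tumors and 74.4 to 231 CPM in lungs. Atp6v0d2, a subunit of the vacuolar proton pump, was at 138 to 421 CPM in tumors and 33.4 to 58.2 CPM in lungs, without overlap (2.50 ± 0.43, edgeR adjusted p = 0.00165). Tmem213, a membrane protein of acid-secreting cells in other organs, was at 4.67 CPM in the F7015 tumor, 40.4 and 91.8 CPM in the F7016 tumors, 28.6 and 232 CPM in the F7018 tumors and 30.3 CPM in the M7008 tumor, against 1.51, 2.6, 5.1 and 0.89 CPM in the 4 lungs. The F7015 tumor had the smallest excess and overlapped with the lung of F7018, and Tmem213 rose by 4.18 ± 0.88 (edgeR adjusted p = 0.00606), 4.83 without F7015. With the first tumors alone the value was 3.33 (adjusted p = 0.0524).

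The summed airway epithelial markers were lower in 5 tumors and not in the first tumor of F7018. The summed club cell list was at 13148 CPM in the F7015 tumor, 4463 and 9124 CPM in the F7016 tumors, 63712 and 3431 CPM in the F7018 tumors and 5294 CPM in the M7008 tumor, against 40561, 44676, 28255 and 62636 CPM in the 4 lungs. The summed ciliated list was at 509, 174, 170, 2552, 293 and 311 CPM in the same tumors, against 3133, 2278, 1510 and 2812 CPM in the lungs. For both sums 5 tumors lay below all lungs, and the first F7018 tumor lay above its own lung. Scgb1a1 made up most of the club cell sum in that tumor (49632 of 63712 CPM). Some other airway genes were lower there than in its lung, among them Cyp2f2 (2037 against 3876 CPM) and Scgb3a2 (1997 against 2522 CPM). Cbr2 (5696 against 7705 CPM) and Fam183b (16.9 against 74.2 CPM) were lower too. Most ciliated genes were higher there, among them Foxj1 (229 against 120 CPM), Rsph1 (174 against 57.5 CPM) and Dnah5 (72.2 against 33.5 CPM). So were the secretory genes Muc5b (306 against 59.5 CPM) and Bpifb1 (270 against 56.1 CPM). These examples were chosen after their values were seen.

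With all tumors, 4 of 17 club cell genes and 5 of 15 ciliated genes fell in the edgeR test, against 10.2% of all genes. None of these falls held in all of the fits that left out 1 animal. DESeq2 called 14 lower in each list (17.5% of all genes). Without the first tumor of F7018, edgeR called 12 club cell and 14 ciliated genes lower. Scgb1a1, the secretoglobin that defines club cells, was at 5904 CPM in the F7015 tumor, 1074 and 61.9 CPM in the F7016 tumors, 49632 and 287 CPM in the F7018 tumors and 623 CPM in the M7008 tumor, against 14673, 10550, 10188 and 31586 CPM in the 4 lungs. It was not called (-2.58 ± 1.83, edgeR adjusted p = 0.331), and without the first F7018 tumor it was -4.19 (adjusted p = 0.0526). Cyp2f2, the cytochrome P450 of club cells, fell by 2.90 ± 0.91 (edgeR adjusted p = 0.0346) and lay below all lungs in all 6 tumors, a call lost without F7015, F7016 or M7008 (adjusted p of 0.0786, 0.14 and 0.148).

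Foxj1, the master regulator of motile cilia, was at 42.4 CPM in the F7015 tumor, 5.33 and 0.253 CPM in the F7016 tumors, 229 and 0 CPM in the F7018 tumors and 2.11 CPM in the M7008 tumor, against 317, 251, 120 and 252 CPM in the 4 lungs. The edgeR test did not call Foxj1 (-4.17 ± 1.70, adjusted p = 0.0914), DESeq2 did (0.00179), and without the first F7018 tumor edgeR gave -6.23 (adjusted p = 0.00908). Tppp3, a tubulin-binding protein of ciliated cells, fell by 2.15 ± 0.58 (edgeR adjusted p = 0.0185), lost without F7015, F7016 or M7008. Without F7018 Tppp3 fell by 2.76 (edgeR adjusted p = 0.00526).

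**Figure D4:**
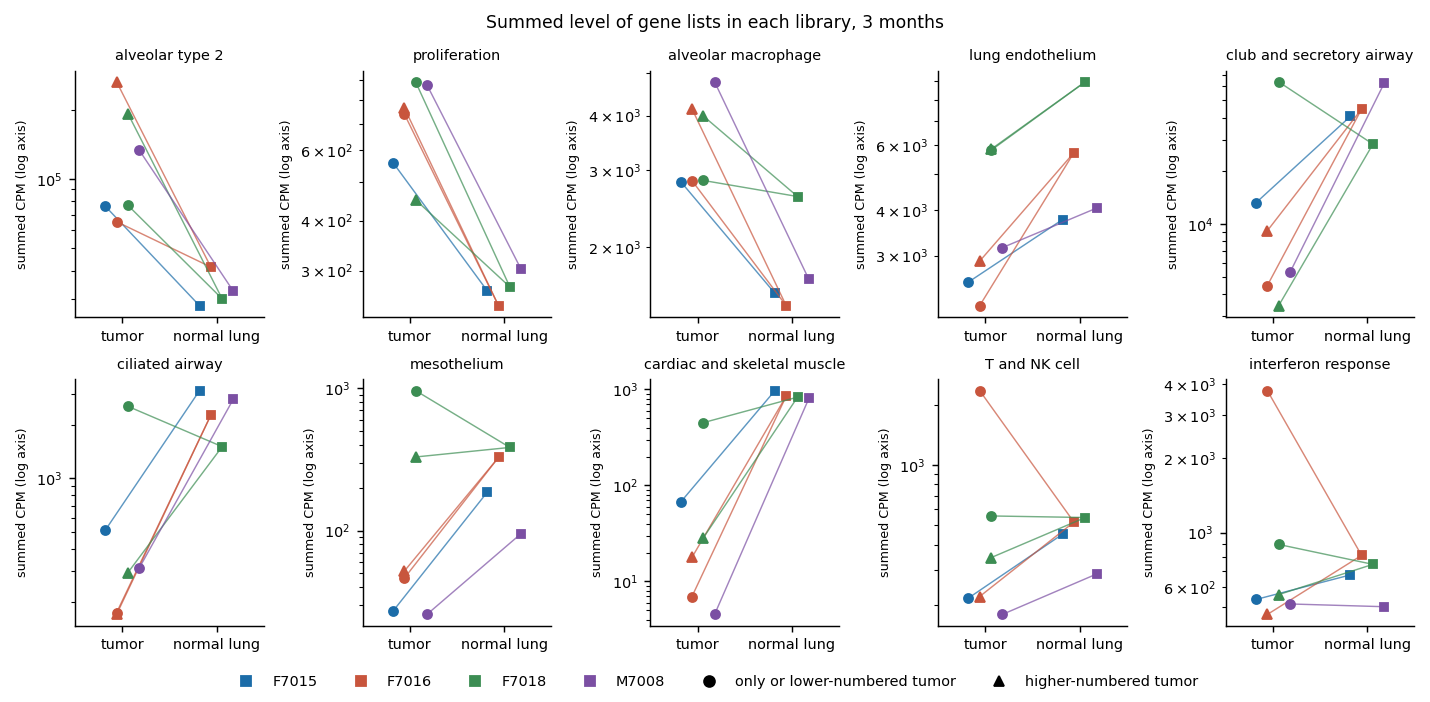
Summed CPM on a log axis of 10 gene lists in each tumor (left) and in the normal lung of the same animal (right, squares), joined by lines and coloured by animal, with circles for the only or lower-numbered tumor and triangles for the higher-numbered one. All tumors lie above their lungs for alveolar type 2 and proliferation genes. The first F7018 tumor stands apart for airway, mesothelial and muscle lists and the first F7016 tumor for T cell (2352 CPM) and interferon (3768 CPM) lists.

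Lung endothelial genes were lower in part. Of 28 tested, 12 fell and 1 rose, against 10.2% and 9.52% of all genes, and 6 of the falls held without any 1 animal. Egfl7, a secreted factor of endothelium, was at 111 CPM in the F7015 tumor, 104 and 85.3 CPM in the F7016 tumors, 344 and 194 CPM in the F7018 tumors and 155 CPM in the M7008 tumor, against 350, 699, 481 and 727 CPM in the 4 lungs. All tumors lay below all matched lungs, the first F7018 tumor only narrowly, and the level was 3.59-fold lower (-1.84 ± 0.27, edgeR adjusted p = 0.000776). Eng, the TGF-beta co-receptor endoglin, fell by 1.44 ± 0.29 (edgeR adjusted p = 0.00385), and Tbx2, a T-box factor of lung endothelium and mesenchyme, by 1.45 ± 0.25 (edgeR adjusted p = 0.00186).

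Pecam1, the adhesion molecule shared by all endothelium, was at 299 to 1015 CPM in tumors and 316 to 851 CPM in lungs, with full overlap. Its fold change was 0.11 ± 0.26 (edgeR adjusted p = 0.808) and turned to -0.21 when libraries were scaled to total counts. Emcn, a sialomucin of capillaries and veins, was the member that rose (1.28 ± 0.34, edgeR adjusted p = 0.0173), lost without F7015, F7016 or M7008 and under total-count scaling (adjusted p of 0.0588). The summed endothelial list was at 2190 to 5855 CPM in tumors and 3766 to 8953 CPM in lungs.

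Mesenchymal genes were split. Of 26 fibroblast, pericyte and smooth muscle genes, 10 fell and 4 rose, and 2 of the falls and none of the rises held without any 1 animal. Myh11, the myosin of smooth muscle, was at 96.4 CPM in the F7015 tumor, 24.7 and 44.3 CPM in the F7016 tumors, 152 and 38.4 CPM in the F7018 tumors and 20.2 CPM in the M7008 tumor, against 425, 326, 346 and 317 CPM in the 4 lungs. No tumor reached a lung (-2.71 ± 0.59, edgeR adjusted p = 0.00686). Des, the intermediate filament desmin, fell by 2.12 ± 0.34 (edgeR adjusted p = 0.00126). Pdgfra, a receptor of alveolar fibroblasts, fell by 1.03 ± 0.35 (edgeR adjusted p = 0.0476) and the pericyte receptor Pdgfrb rose by 1.11 ± 0.33 (0.0285), both lost without F7015, F7016 or M7008. Pdgfrb was not called under total-count scaling (adjusted p = 0.092), and Pdgfra was not called without the first tumor of F7016 (0.0601).

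Of 26 genes for extracellular matrix and basement membrane, 9 rose and 1 fell, with a median of 0.82. Col4a1, a collagen of basement membranes, was at 1007 CPM in the F7015 tumor, 696 and 1613 CPM in the F7016 tumors, 1065 and 1409 CPM in the F7018 tumors and 1482 CPM in the M7008 tumor, against 216, 248, 575 and 321 CPM in the 4 lungs. There was no overlap, and F7018 had the smallest difference (2.02 ± 0.33, edgeR adjusted p = 0.00135). Lamb3, a laminin chain of epithelial basement membrane, rose by 2.96 ± 0.47 (edgeR adjusted p = 0.00122) and by 2.29 without F7015, whose tumor was highest at 748 CPM. Eln, elastin, rose by 2.21 ± 0.36 (edgeR adjusted p = 0.0013), though the first F7018 tumor was below its lung (62.2 against 86.5 CPM), and with the first tumors alone the value was 1.38 (adjusted p = 0.0685).

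Macrophage genes were higher in part. Of 17 alveolar macrophage genes 10 rose and none fell, and of 18 monocyte and interstitial macrophage genes 7 rose and 2 fell, against 9.52% and 10.2% of all genes. Cd68, a lysosomal glycoprotein of macrophages, was at 98.2 CPM in the F7015 tumor, 139 and 103 CPM in the F7016 tumors, 85.3 and 175 CPM in the F7018 tumors and 140 CPM in the M7008 tumor, against 41, 25.9, 35.6 and 17.6 CPM in the 4 lungs. No tumor overlapped with a lung (2.13 ± 0.29, edgeR adjusted p = 0.000518). Trem2, a lipid-sensing receptor, rose by 2.17 ± 0.45 (edgeR adjusted p = 0.00518), and Plin2, a lipid droplet coat protein, by 1.39 ± 0.27 (edgeR adjusted p = 0.00326). Siglecf, a lectin of alveolar macrophages and eosinophils, rose by 2.15 ± 0.44 (edgeR adjusted p = 0.00463), but was below its lung in the first F7018 tumor (2.2 against 3.67 CPM) and at 1.63 with the first tumors alone (adjusted p = 0.134). C1qb, a subunit of complement C1q made by interstitial macrophages, rose by 1.54 ± 0.32 (edgeR adjusted p = 0.00496). Other macrophage genes were low in most tumors and highest in the first F7018 tumor. Folr2 was at 0.761 to 24.6 CPM in tumors and 10.8 to 17.6 CPM in lungs. Cd163 was at 0.326 to 19 CPM against 8.93 to 16.9 CPM, and F13a1 at 1.41 to 26.1 CPM against 16.8 to 38.4 CPM. The summed alveolar macrophage list was at 2827 to 4781 CPM in tumors and 1469 to 2612 CPM in lungs.

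Proteases of these cells and of epithelium were also higher, with 10 of 25 genes up and none down in the list of cathepsins, proteases and inhibitors. Mmp12, the macrophage elastase, was at 128 CPM in the F7015 tumor, 196 and 30.3 CPM in the F7016 tumors, 7.83 and 35.3 CPM in the F7018 tumors and 29.7 CPM in the M7008 tumor, against 12.2, 7.58, 8.62 and 2.67 CPM in the 4 lungs. The first F7018 tumor was the one at lung level, and the level over all tumors was 8.39-fold higher (3.07 ± 0.46, edgeR adjusted p = 0.000776). Ctss, the cathepsin that trims the class II invariant chain, rose by 2.36 ± 0.45 (edgeR adjusted p = 0.00314) and reached 1412 CPM in the first F7016 tumor. Ctsc, which activates granule proteases, rose by 2.09 ± 0.28 (edgeR adjusted p = 0.000501).

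Antigen presentation genes rose in 11 of 20 cases and fell in none, with a median of 1.10. Cd74, the class II invariant chain, which type 2 cells also express, was at 4640 CPM in the F7015 tumor, 4715 and 6767 CPM in the F7016 tumors, 2768 and 9310 CPM in the F7018 tumors and 5849 CPM in the M7008 tumor, against 1857, 1606, 1524 and 1444 CPM in the 4 lungs. All tumors lay above all lungs (1.85 ± 0.37, edgeR adjusted p = 0.00399). H2-DMb1, a chain of the class II peptide exchange factor, rose by 2.28 ± 0.34 (edgeR adjusted p = 0.000791), with 59.4 to 254 CPM in tumors and 32.5 to 50 CPM in lungs. B2m, the light chain of class I, rose by 1.38 ± 0.35 (edgeR adjusted p = 0.0138), lost without F7016 or M7008 and, in the fit without the animal block, at an adjusted p of 0.0701. The summed list was highest in the first F7016 tumor (32487 CPM).

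No T or NK cell gene was called higher. Of 26 tested, 1, the granzyme Gzma, was called lower (-1.62 ± 0.47, edgeR adjusted p = 0.0241, lost without F7015, F7016 or M7008). The summed list was at 216 CPM in the F7015 tumor, 2352 and 220 CPM in the F7016 tumors, 556 and 344 CPM in the F7018 tumors and 179 CPM in the M7008 tumor, against 451, 518, 546 and 285 CPM in the 4 lungs. The first F7016 tumor was thus the only one far above its lung, and 4 of the other 5 tumors lay below theirs. Cd3e, a chain of the T cell receptor complex, was at 337 CPM in that tumor and at 19.8 to 47.1 CPM in the other 5, against 22.5 to 44.5 CPM in lungs (0.37 ± 0.54, edgeR adjusted p = 0.663). The fold change of Cd3e was -0.35 without that tumor. Of 25 interferon response genes 3 fell, a share near the 10.2% of all genes, and none rose. Their sum was 3768 CPM in the first F7016 tumor, 466 to 896 CPM in the other 5 and 501 to 809 CPM in lungs. The part of this tumor's lymphocyte and interferon content in the other immune results was not tested, and without it 8 of 20 antigen presentation genes rose. Of 17 B and plasma cell genes 2 fell, and of 7 lymphoid tissue chemokines none was called by edgeR, where 1 was under 0.05 before adjustment, and DESeq2 called 1 higher.

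Genes of immune checkpoints and regulatory T cells included 6 higher and 1 lower of 24. Cd276, the B7-H3 ligand of the checkpoint family, which epithelium and stroma can express, was at 65.6 CPM in the F7015 tumor, 47.8 and 53.2 CPM in the F7016 tumors, 22.6 and 31.8 CPM in the F7018 tumors and 77.2 CPM in the M7008 tumor, against 9.77, 13.6, 7.7 and 15.5 CPM in the 4 lungs. All tumors lay above all lungs (4.76-fold, 2.25 ± 0.32 on the log2 scale, edgeR adjusted p = 0.0006). Entpd1, the ectonucleotidase CD39, rose by 1.86 ± 0.35 (edgeR adjusted p = 0.00289). Tnfrsf9, the costimulatory receptor 4-1BB, was at 124 CPM in the first F7016 tumor and at 3.99 to 40.6 CPM in the other 5, against 2.25 to 6.93 CPM in lungs (2.78 ± 0.57, edgeR adjusted p = 0.00459), and with the second tumors of F7016 and F7018 it was at 1.69 (adjusted p = 0.0697). Cd274, the checkpoint ligand PD-L1, was not called (0.81 ± 0.42, edgeR adjusted p = 0.179) and reached 113 CPM in the first F7016 tumor.

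Among inflammatory mediators 8 of 25 rose and 1 fell. Ccl6, a myeloid chemokine of rodents, was at 1041 to 1682 CPM in tumors and 71.5 to 255 CPM in lungs, without overlap (3.04 ± 0.53, edgeR adjusted p = 0.00182). Csf2, the growth factor GM-CSF that alveolar macrophages need, was at 24.8 to 46.5 CPM in tumors and 10.8 to 17.6 CPM in lungs (1.5 ± 0.27, edgeR adjusted p = 0.00236). Ccl17, a chemokine of dendritic cells, taken from the dendritic cell list (4 higher of 16), rose by 2.50 ± 0.46 (edgeR adjusted p = 0.00246). Of 13 chitinase-like and type 2 response genes 2 rose. Chil1, a chitinase-like lectin, rose by 2.46 ± 0.36 (edgeR adjusted p = 0.000776), and Retnla, a resistin-like protein of type 2 responses, was at 34389 CPM in the first F7018 tumor and at 170 to 2729 CPM in the other 5, against 1413 to 4597 CPM in lungs (0.17 ± 1.22, edgeR adjusted p = 0.938). Without that tumor Retnla was at -1.28.

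Xenobiotic enzymes were lower in part. Of 24 tested, 11 fell and 2 rose, with a median of -1.37, and 2 of the falls and none of the rises held without any 1 animal. Cyp1a1, the aryl hydrocarbon-induced P450 expressed in lung endothelium and epithelium, was at 0.364 CPM in the F7015 tumor, 0.435 and 0.169 CPM in the F7016 tumors, 3.59 CPM in both F7018 tumors and 1.09 CPM in the M7008 tumor, against 4.94, 13.2, 20.8 and 5.87 CPM in the 4 lungs. All tumors lay below all matched lungs, 10.5-fold on average (-3.39 ± 0.66, edgeR adjusted p = 0.00352). Across all 9 normal lungs of 3 months Cyp1a1 ranged from 1.02 to 21.7 CPM, and 3 of the 6 tumors lay below all 9. Fmo1, a flavin monooxygenase, fell by 1.95 ± 0.32 (edgeR adjusted p = 0.00136), and by 1.62 without the animal block (adjusted p = 0.0904). Cyp4b1, a P450 of club cells and endothelium, fell by 2.58 ± 0.58 (edgeR adjusted p = 0.00768), lost without F7016 or M7008 and, without the animal block, at -1.66 (0.054). Leaving out F7018 moved Cyp4b1 to -3.24. Among tumors both genes were highest in the first of F7018, at 175 CPM for Fmo1 and 637 CPM for Cyp4b1. The second F7018 tumor came next, at 161 CPM for Fmo1 and 316 CPM for Cyp4b1, with a club cell sum of 3431 CPM, the lowest of the 6 tumors. The summed endothelial list was at 5818 and 5855 CPM in the first and second F7018 tumors and at 2190 to 3155 CPM in the other tumors. The part of cell content in these levels was not tested.

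Antioxidant, glycolytic and lipid genes gave fewer calls. Of 18 Nrf2 targets 6 rose and 1 fell, of 17 genes for glycolysis and hypoxia 3 rose, and of 22 genes for lipid and cholesterol synthesis 4 rose and 1 fell. Hmox1, the haem-degrading enzyme, was at 114 to 324 CPM in tumors and 35.2 to 67.5 CPM in lungs (2.05 ± 0.34, edgeR adjusted p = 0.00143). Me1, the NADPH-forming malic enzyme, rose by 1.99 ± 0.39 (edgeR adjusted p = 0.00368), and Nqo1, a standard Nrf2 target, was not called (-1.37 ± 0.75, adjusted p = 0.198). Hk2, a hexokinase of proliferating cells, rose by 1.78 ± 0.31 (edgeR adjusted p = 0.00182), and Pkm, pyruvate kinase, by 1.27 ± 0.25 (edgeR adjusted p = 0.00386).

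Elovl1, an elongase of long-chain fatty acids, rose by 2.39 ± 0.38 (edgeR adjusted p = 0.00121), with 492 to 2987 CPM in tumors and 299 to 520 CPM in lungs. The desaturase Scd1 rose by 2.23 ± 0.57 (edgeR adjusted p = 0.0141, lost without F7016 or M7008), and Sqle, an enzyme of cholesterol synthesis, fell by 1.58 ± 0.34 (edgeR adjusted p = 0.00591, lost without F7016 at 0.0507). Of 15 circadian clock genes 1 rose and 3 fell. The riser was Bhlhe40, a repressor that also responds to hypoxia (1.64 ± 0.23, edgeR adjusted p = 0.0006).

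Genes of muscle, fat and nerve were lower in part. Of 15 cardiac and skeletal muscle genes tested 10 fell, and 3 of these falls held without any 1 animal. The sum of the list was 4.53 to 451 CPM in tumors and 806 to 974 CPM in lungs. The 451 CPM were those of the first F7018 tumor, and the other 5 had at most 67.1 CPM. Tnnt2, cardiac troponin T, which the muscle sleeve of pulmonary veins expresses, was at 4 CPM in the F7015 tumor, 0.87 and 0.844 CPM in the F7016 tumors, 35.1 and 2.53 CPM in the F7018 tumors and 0.703 CPM in the M7008 tumor, against 100, 113, 91.7 and 73.2 CPM in the 4 lungs. It fell by 5.04 ± 1.11 (edgeR adjusted p = 0.00762), by 5.97 without F7018, by 5.73 without the first tumor of F7018 and by 4.36 without F7016. Of 10 adipocyte genes 3 fell, and of 15 neuroendocrine and neural genes 5 fell. None of the falls in these lists of fat and nerve genes held in all of the fits that left out 1 animal. Of 8 mesothelial genes none was called by edgeR, where 5 were under 0.05 before adjustment, and DESeq2 called 6 lower. The mesothelial sum was 964 CPM in the first F7018 tumor and 25.7 to 329 CPM in the other 5, against 95.3 to 384 CPM in lungs.

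The largest rises among genes averaging at least 5 CPM, beside Dlk1 and Ereg, included transcripts that were low in lung. Spag11b, an epididymal defensin-like protein, was at 2.06 CPM in the F7015 tumor, 2.17 and 20.2 CPM in the F7016 tumors, 0 and 3.83 CPM in the F7018 tumors and 27.1 CPM in the M7008 tumor, against 0, 0.156, 0 and 0.0593 CPM in the 4 lungs. It had no count in the first F7018 tumor and lay above every lung in the other 5. The noncoding transcript 9330188P03Rik was at 1.9 to 117 CPM in tumors and 0.459 to 1.54 CPM in lungs, without overlap (5.44 ± 1.01, edgeR adjusted p = 0.00292), and at 3.78 with the first tumors alone. Tnfsf9, the ligand of 4-1BB, was at 2.86 to 47.1 CPM in tumors and 0.362 to 2.86 CPM in lungs (4.29 ± 0.55, edgeR adjusted p = 0.000483) and at 3.38 with the first tumors alone.

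Rgs4, a regulator of G protein signalling, was at 235 CPM in the F7015 tumor, 69.5 and 28.9 CPM in the F7016 tumors, 18.5 and 22.1 CPM in the F7018 tumors and 139 CPM in the M7008 tumor, against 7.05, 4.41, 9.49 and 5.93 CPM in the 4 lungs. Every tumor lay above every lung (3.68 ± 0.65, edgeR adjusted p = 0.00206), with 3.08 without F7015 and 4.43 without F7018. Rian, a noncoding RNA of the imprinted Dlk1 region, was at 8.05 to 533 CPM in tumors and 8.88 to 12.3 CPM in lungs (4.27 ± 1.25, edgeR adjusted p = 0.0274, lost without any 1 animal). BC025446 was at 40.8 CPM in the F7015 tumor and 33.3 CPM in the first F7016 tumor and under 1 CPM in the other 4 tumors (5.4 ± 1.25, edgeR adjusted p = 0.00857), lost without F7015 (4.40, adjusted p = 0.0785), without F7016 (4.46, 0.0809) or without that tumor (3.51, 0.0713).

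The largest falls under the same level rule were in a liver hormone gene and in genes of muscle, fat and basal epithelium. Hamp, the iron hormone hepcidin, was at 0 CPM in the F7015 tumor, 0.435 and 0 CPM in the F7016 tumors, 0 CPM in both F7018 tumors and 0 CPM in the M7008 tumor, against 17.8, 71.7, 33.6 and 6.35 CPM in the 4 lungs. It was thus counted in 1 of the 6 tumors and in all matched lungs (edgeR adjusted p = 0.00449). Over all 9 normal lungs of 3 months Hamp ranged from 0.186 to 289 CPM, so low levels were also seen in normal lung. Nppa, the atrial natriuretic peptide, was at no more than 0.293 CPM in any tumor and at 30.8 to 111 CPM in the matched lungs (-8.71 ± 1.67, edgeR adjusted p = 0.00403), and at -9.33 without F7018. Over all 9 lungs its lowest level was 0.606 CPM. Krt15, a keratin of basal epithelium, was at no more than 0.121 CPM in tumors and at 8.02 to 23.8 CPM in lungs (edgeR adjusted p = 0.0204, lost without any 1 animal). The other falls of this rank were in Sln, Cfd, Car3, Mb, Csrp3, Myh6, Myl7, Pck1 and Actn2, of which Sln was lost without F7016 and the rest without 3 or 4 of the animals in turn. Sln too varied between normal lungs, from 0.0466 to 138 CPM over all 9.

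The 3-month effect was set beside the effects at the other times, which come from other animals of other ages. The 7-month animals were 44 weeks old and the end-of-exposure animals 16 weeks old, so time after exposure and age cannot be told apart. At 7 months (23 tumors of 9 animals) edgeR called 2785 genes higher (18%) and 3058 lower (19.8%). Some of these 7-month tumors carry another title code (ADC) and were summed with the ADN tumors of their animals. At the end of exposure (4 tumors of 3 animals) edgeR called 304 higher (1.97%) and 409 lower (2.65%). Of the 3046 genes called at 3 months, 98.8% had the same sign at 7 months (82.2% of all genes) and 91.8% at the end of exposure (70.6% of all genes). Of these calls 2538 were also called at 7 months in the same direction, 83.3% of the 3-month calls and 43.4% of the 7-month calls, and 497 at the end of exposure, 16.3% and 69.7%. Across genes, which are not independent replicates, the fold changes correlated at r = 0.873 with 7 months and r = 0.745 with the end of exposure.

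**Figure D5:**
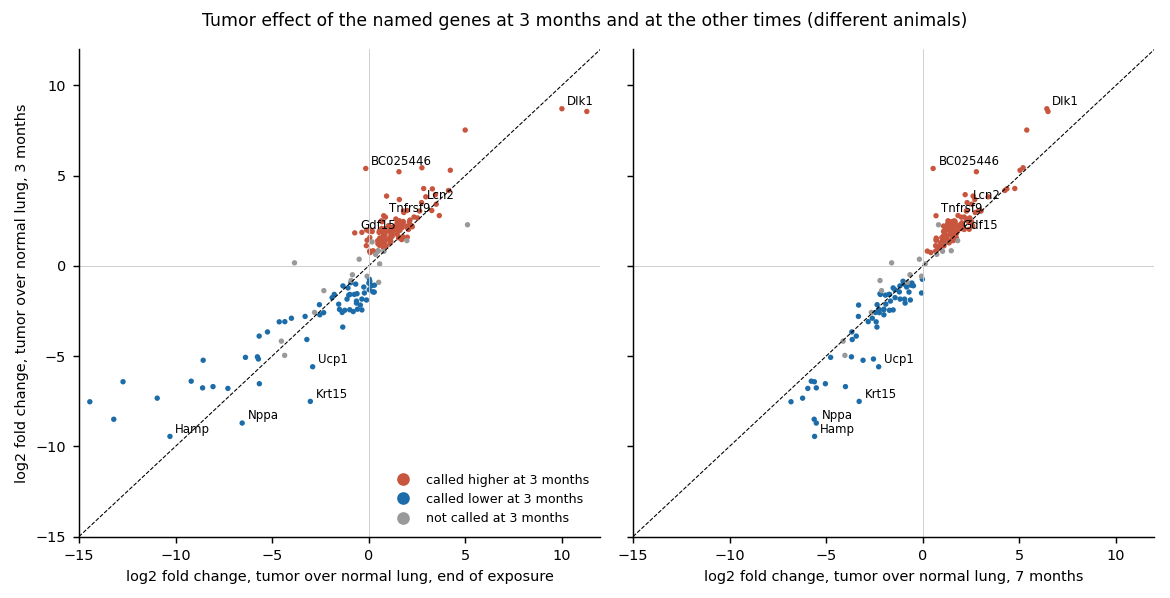
Log2 fold changes of tumor over matched lung for the named genes, at 3 months (4 animals, vertical) against the end of exposure (3 animals, left panel) and 7 months (9 animals, right panel). Red points were called higher at 3 months, blue lower and grey not called, and the dashed line marks equal values. Most points share their sign, and Gdf15 is at 1.83 at 3 months and -0.72 at the end of exposure.

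No gene passed the edgeR test of a difference between the 3-month effect and that at 7 months, where 650 genes (4.21%) had an unadjusted p under 0.05 and the lowest adjusted p was 0.999. Against the end of exposure none passed either, with 1229 genes (7.95%) at an unadjusted p under 0.05 and a lowest adjusted p of 0.591. DESeq2 called 2 differences against 7 months and 9 against the end of exposure. By DESeq2 the 3-month effect of Gdf15 was 2.57 above that at the end of exposure (adjusted p = 0.00403), with edgeR fold changes of 1.83 at 3 months and -0.72 at the end of exposure. Tbx2 was 1.73 below by DESeq2 (-1.73, adjusted p = 0.0296), with edgeR values of -1.45 at 3 months and 0.29 at the end of exposure. Mapt, the microtubule protein tau, was at -2.94 at 3 months and -0.59 at the end of exposure (DESeq2 difference -2.34, adjusted p = 0.00403).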

How the data were processed

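Libraries were made from 10 ng of total RNA with the Ion AmpliSeq mouse transcriptome panel and sequenced on Ion Proton chips, 8 libraries to a chip, per the labels' protocols. Which chip held which library, the aligner and the build: not given in the sources used here. The deposited table holds whole-number counts per gene for 23930 genes, as the authors made it. Of its 74 columns 72 matched a sample by title, and 2 were not used. The counts of an animal's tumors were summed for the test and for the means ± SD, whose CPM were scaled over these summed libraries. Levels of single libraries were scaled over all 72 libraries, so the 2 kinds of level differ somewhat. Main test: edgeR 4.0.16 (R 4.3.3), quasi-likelihood with filterByExpr, TMM, robust fit, a term for each of 16 animals and a tumor effect for each time (32 libraries, 13 residual degrees of freedom), Benjamini-Hochberg adjusted. Alternatives were DESeq2 1.42.0, limma 3.58.1, other scalings, filters and pairings, and left-out animals or tumors. On simulated data with 15019 genes, 50 of 50 genes changed 4-fold and 15 of 50 changed 2-fold upwards were called. The simulation gave every gene the same spread and changed only well-counted genes, so these counts hold for that setting. Recovery of measured changes of these sizes was not tested. The pairing is by animal: tumor and lung deviations correlated at 0.317, 0.233, -0.0495 and 0.176 in F7015, F7016, F7018 and M7008. Named genes were the 12 largest rises and falls above 5 CPM that moved alike in all pairs, the 4 smallest p in each list with 3 or more calls, a fixed panel, and list members. The members and lists were chosen with earlier results of these data known.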

Additional observations from a re-analysis of the deposited data

Results flagged for a closer look

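In 11 of 187 named genes the log2 ratio of tumor to lung in 1 animal lay apart from those in the other 3 by more than Dixon's 95% critical value for 4 values, which chance passes in about 1 of 20 groups, so the number of such genes is near what chance gives. F7018 was apart for Lamp3 (1.86), Col4a1 (1.07), Tppp3 (-0.06) and Actn2 (-2.78), where its difference was the smallest, and for Krt8 (1.64), where it was the largest. F7015 was apart with the smallest ratio for Tmem213 (1.59), Aqp5 (1.19), Ctsc (1.55) and Tpx2 (1.43). M7008 was apart for Slc34a2 (2.92), with the largest ratio, and F7016 for Chil1 (1.69), with the smallest.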

How the results depend on the processing

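The direction of the named genes held in nearly all settings: over 187 named genes, 2688 values kept direction and call, 426 kept the direction and lost the call, 40 gained a call and 12 turned sign. Since 170 of these genes were called and the settings refit the same libraries, their direction was largely fixed by the choice of genes. The counts of genes called varied more. Without the animal block (the pairing of tumor and lung) 1221 genes were higher and 1009 lower, total-count scaling gave 673 and 2748, DESeq2 called 2706 lower, the first tumors alone gave 795 and 823, and the second tumors in their place 1241 and 2029. All 9 lungs unpaired gave 2669 and 2587, and without the first F7018 tumor 2459 were lower. Leaving out 1 animal gave 459 to 1346 higher and 334 to 1995 lower. DESeq2 called 2 differences from 7 months and 9 from the end of exposure where edgeR called none. The values that turned sign were all of genes not called. Pecam1 was -0.21 with total counts. Leaving out 1 animal moved Hnf4a between -2.08 and 0.32 (0.15 without F7016, 0.32 without M7008). Cd3e was -0.48 with the second tumors, -0.35 without the first F7016 tumor, and between -0.14 (without F7016) and 0.60 when 1 animal was left out. Retnla was -0.14 with total counts, -0.07 with each tumor on its own, -1.87 with the second tumors, between -0.71 (without F7018) and 0.92 when 1 animal was left out, -1.28 without the first F7018 tumor and -0.20 without the first F7016 tumor. The cause was not tested. The fewest counts in a tumor were 8506299, and 4 animals limit the calls. With the same simulated spread for every gene, the design recovered 15 of 50 simulated 2-fold rises and 50 of 50 simulated 4-fold rises. In the measured data Foxj1 and Scgb1a1 were lower by more than 4-fold and were not called by edgeR. How often measured changes of these sizes are called was not tested. Some genes could not be tested under every alternative.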
